A study of Homo sapiens with 24 samples.

Results

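The 10 genes described here are SCG2, EFEMP1, ATP8B1, SUSD2, CLCA2, TMEM119, NGEF, UCN, CPA4 and ROPN1L, out of 58174 genes listed for each cell line. They were chosen by their measured response, because each showed a large increase upon IGF2BP1 knockdown in 1 line or in several. The direction of the change in the line where it is largest is therefore fixed by the choice, and the changes of these genes are given as descriptions without a test. The smallest of the 10 peak changes was that of CPA4, with a log2 fold change of 1.22 in MV3, and the largest was that of SCG2, with 4.35 in ES2.

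Total RNA was sequenced from A549 (lung adenocarcinoma), ES2 (ovarian clear cell adenocarcinoma), MV3 (amelanotic melanoma) and PANC1 (pancreatic ductal adenocarcinoma) cells. Each line received either a control siRNA (siC) or siRNAs that target IGF2BP1, used as a pool (siI1), and 3 libraries were made per condition, 24 libraries in 8 groups. Cells were harvested 72 h after transfection, or 96 h in the case of PANC1, so the line and the harvest time cannot be told apart there. A single pool of siRNAs was compared with a single control, so the loss of IGF2BP1 cannot be told apart from any other effect of that pool. Values are FPKM, the reads per kilobase of gene length scaled by the size of the library, and the reads behind each value could be recovered. Libraries of A549 held 3105215 to 4553326 reads within genes, those of ES2 6421764 to 8419467, those of MV3 15572492 to 20082702 and those of PANC1 6532175 to 8472851, so a low FPKM rests on the fewest reads in A549. In RNA from a whole culture, a change in the share of cells that carry a transcript and a change in the amount per cell cannot be told apart.

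IGF2BP1 itself decreased in all 4 lines, with no overlap between siI1 and siC. A549 had a log2 fold change of -1.32 (limma adjusted p = 0.000319), ES2 of -1.55 (adjusted p = 0.000115), MV3 of -1.52 (adjusted p = 5.93e-05) and PANC1 of -1.83 (adjusted p = 0.000227). Markers of the tissue of origin were absent in part. Of the listed lineage genes, 2 of 6 for lung epithelium reached a mean of 1 FPKM in A549, 1 of 6 for ovarian epithelium in ES2, 0 of 7 for melanocytes in MV3 and 4 of 6 for pancreatic duct in PANC1. At least 1 other line matched or exceeded each count. The lung list had 2 in ES2 and PANC1 and 1 in MV3, and the ovarian list 2 in A549 and PANC1 and 1 in MV3. The melanocyte list had 1 in each other line. The duct list had 4 in A549, 2 in ES2 and 1 in MV3. NKX2-1, SFTPB and SFTPC were listed at 0 in A549, and SOX10, TYR and DCT were listed at 0 in MV3.

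IGF2BP1 is an RNA-binding protein of the embryo and of many tumors that binds mRNAs in the cytoplasm and can protect them from decay. The 10 genes do not form a pathway. SCG2 (secretogranin II) and UCN (urocortin) encode precursors of secreted peptides, EFEMP1 (fibulin-3) is a glycoprotein of the extracellular matrix, and CPA4 is a secreted metallocarboxypeptidase. ATP8B1 is a phospholipid flippase, and SUSD2, CLCA2 and TMEM119 are membrane proteins. NGEF (ephexin-1) is a signaling protein that acts downstream of Eph receptors, and ROPN1L is a protein of the sperm flagellum and motile cilia.

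Of the 10 genes, 4 lie on chromosome 2, although far from each other (GENCODE release 44, hg38). These are UCN at chr2:27307400-27308445, EFEMP1 at chr2:55865967-55924139, SCG2 at chr2:223596940-223602361 and NGEF at chr2:232878701-233013256, all on the minus strand. CLCA2 lies at chr1:86424171-86456553 (plus strand), ROPN1L at chr5:10441524-10472029 (plus strand) and CPA4 at chr7:130293134-130324180 (plus strand). TMEM119 lies at chr12:108589851-108598320 (minus strand), ATP8B1 at chr18:57646426-57803315 (minus strand) and SUSD2 at chr22:24181487-24189106 (plus strand).

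Promoter sequences (RefSeq, GRCh38.p14, 250 bases before to 50 bases after the start) were matched for 5 of the 10 genes. The 120 bases directly before the RefSeq start are shown for CPA4, UCN and ROPN1L, because these 3 genes were higher in siI1 in all 4 lines. Capitals mark AP-1 sites (TGACTCA on either strand) and the TATA box (TATAAA on either strand), where overlapping matches were merged. The CPA4 stretch is chr7:130293041-130293160 on the plus strand, the UCN stretch chr2:27308446-27308565 on the minus strand and the ROPN1L stretch chr5:10441759-10441878 on the plus strand. The RefSeq start lies downstream of the GENCODE gene start in CPA4 and ROPN1L, so that the last 27 bases of the CPA4 stretch, which hold the second AP-1 site, and all 120 bases of the ROPN1L stretch lie inside the GENCODE gene.
CPA4: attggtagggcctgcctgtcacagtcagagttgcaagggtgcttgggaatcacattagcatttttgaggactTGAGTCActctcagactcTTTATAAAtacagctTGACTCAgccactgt
UCN: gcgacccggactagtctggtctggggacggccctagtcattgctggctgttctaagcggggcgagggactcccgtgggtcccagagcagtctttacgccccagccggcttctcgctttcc
ROPN1L: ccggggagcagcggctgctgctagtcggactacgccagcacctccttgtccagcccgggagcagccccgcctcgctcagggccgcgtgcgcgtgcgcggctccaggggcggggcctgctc

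The 3 stretches differ in composition, with a GC content of 45.8% in CPA4, 65.0% in UCN and 76.7% in ROPN1L. In CPA4, an AP-1 site starts 48 bases before the RefSeq start and a second one 15 bases before it, with the TATA box between them. An AP-1 site was present in 4.95% of the 35116 promoters of the same length, and a TATA box in 11.5%. Neither was found in the window of UCN or ROPN1L, nor in those of NGEF. CLCA2 held TATAAA once, 200 bases before its start. The other motifs searched on both strands were found in none of these windows: the cyclic AMP response element TGACGTCA (1.85% of all promoters), its core TGACG (24.6%), the hypoxia core ACGTG (21.4%), the E2F sites TTTCCCGC and TTTGGCGC (2.27% together) and the SRF CArG box (1.29%).

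Of the 40 pairs of a gene and a line, 27 had all 3 siI1 libraries above all 3 siC libraries and 2 had all of them below. In 29 pairs the 6 libraries averaged 0.5 FPKM or more, the minimum for the fit, and in 6 pairs no library of either condition had more than 3 reads. By line, siI1 was above siC without overlap for 7 of the 10 genes in each of A549, ES2 and MV3 and for 6 in PANC1, and below for 1 gene in A549 and another in PANC1. The 7 in ES2 include SUSD2 and ROPN1L, which did not reach the minimum, while the shares below cover only genes that did. Among all genes tested in A549, coding and non-coding, siI1 was wholly above siC for 15.4% and wholly below for 18.5%. The shares were 19.5% and 22.6% in ES2, 24.5% and 25.9% in MV3, and 19.4% and 23.8% in PANC1. Since the genes were selected on this contrast, nothing is read from the difference. SCG2, UCN, CPA4 and ROPN1L were above in all 4 lines, ATP8B1 in 3 lines, EFEMP1, SUSD2 and NGEF in 2 lines, and CLCA2 and TMEM119 in 1 line.

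**Figure D1:**
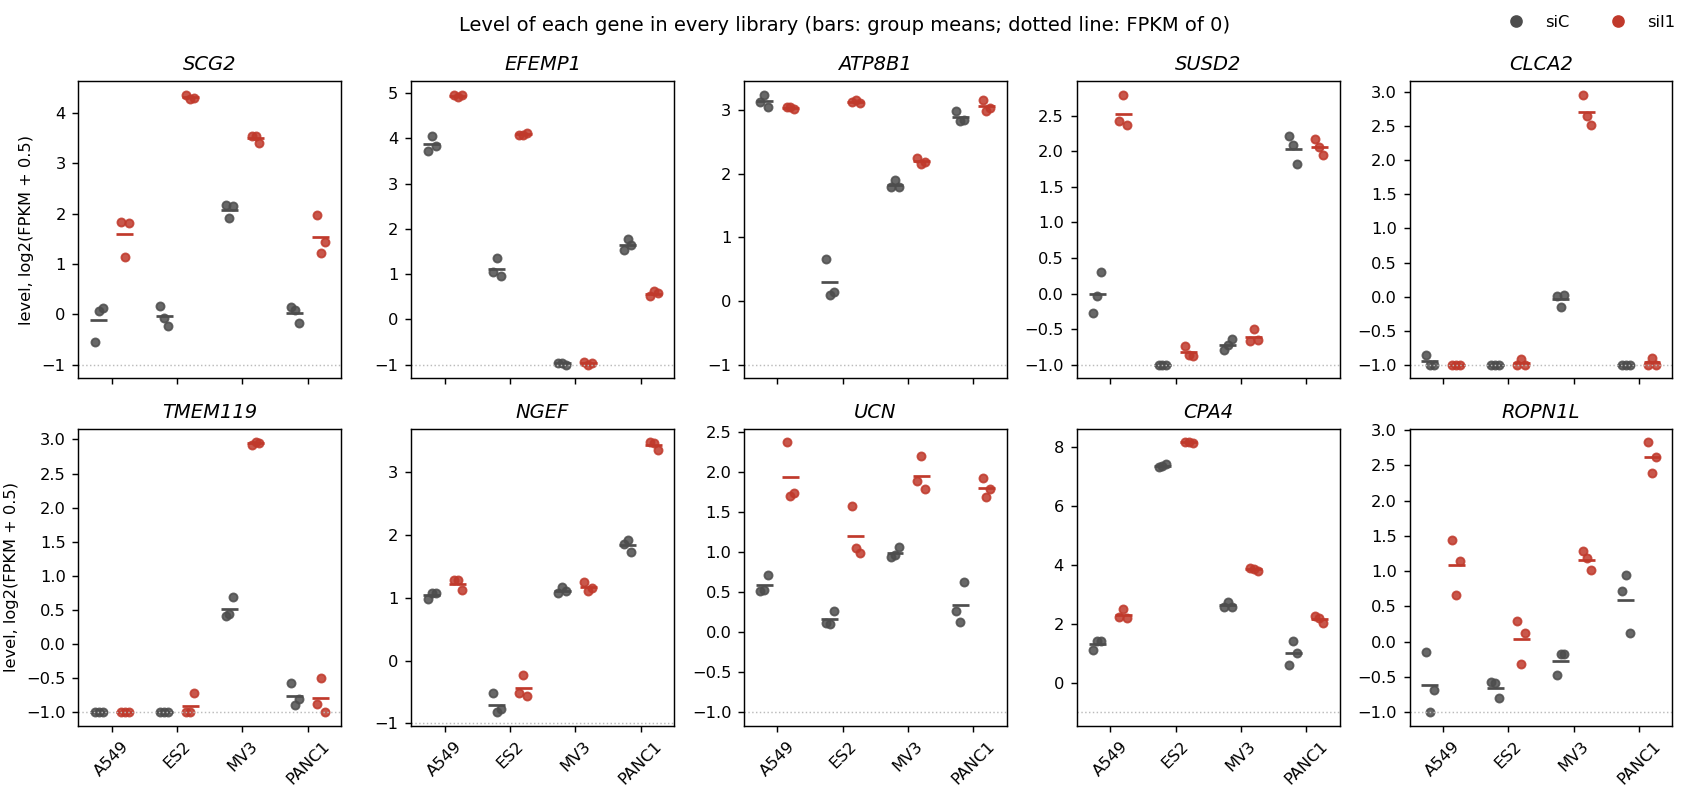
Level of the 10 genes as log2(FPKM + 0.5) in each of the 24 libraries (points, 3 per group; horizontal bars are group means; gray siC, red siI1; each panel has its own vertical axis). SCG2, UCN, CPA4 and ROPN1L lie higher in siI1 in all 4 lines, while CLCA2 and TMEM119 leave the floor in MV3 and EFEMP1 goes opposite ways in ES2 and PANC1.

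SCG2 is stored in the dense-core vesicles of endocrine and neuronal cells, where it is cleaved into peptides such as secretoneurin. In ES2, SCG2 was at 0.630, 0.448 and 0.357 FPKM in the siC libraries and at 20.1, 18.9 and 19.2 FPKM in the siI1 libraries, which rest on 7 to 11 and 370 to 441 reads. The ratio of the means was 40.5, and the log2 fold change, which the added 0.5 FPKM makes smaller, was 4.35 ± 0.12 (SE, n = 3 per condition). Among protein-coding genes of the same library, SCG2 moved from a mean percentile of 43.8 to 89.4 in ES2.

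In the other lines, the SCG2 difference was smaller but had the same sign. MV3 had the highest SCG2 level without knockdown, at 4.01, 3.26 and 3.96 FPKM, against 11.2, 11.1 and 10.0 FPKM in siI1 (log2 fold change 1.41 ± 0.09). A549 had 0.180, 0.554 and 0.587 FPKM in siC and 3.09, 1.70 and 3.01 FPKM in siI1 (1.72 ± 0.31), on 2 to 7 and 21 to 29 reads. PANC1 had 0.613, 0.562 and 0.394 FPKM in siC and 3.44, 1.83 and 2.20 FPKM in siI1 (1.52 ± 0.23). Levels are set side by side across lines here, although each line was normalized on its own. The order of the siC levels was MV3, PANC1, ES2 and A549, where the last 3 overlapped in neighboring pairs, and in siI1 ES2 moved to the top, above MV3.

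UCN, a peptide of the corticotropin-releasing hormone family, was low in all lines. In MV3, where it is covered best, UCN was at 1.42, 1.44 and 1.59 FPKM in siC and at 3.19, 4.10 and 2.95 FPKM in siI1 (log2 fold change 0.97 ± 0.12), on 17 to 20 and 46 to 66 reads. PANC1 had 0.699, 0.591 and 1.05 FPKM in siC and 3.31, 2.72 and 2.97 FPKM in siI1 (1.46 ± 0.17). The log2 fold changes of UCN in the 4 lines lay between 0.97 and 1.46. In A549 (1.35 ± 0.23) the siC libraries held 3 to 4 UCN reads and the siI1 libraries 8 to 12, with 4.69 FPKM in siI1 replicate 1 against 2.77 and 2.84 FPKM in the others. In ES2 (1.04 ± 0.20) the counts were 3 to 4 and 9 to 15 reads. UCN and the gene TRIM54 on the opposite strand share bases at their ends, and TRIM54 had at most 5 reads in any library.

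EFEMP1 differed between conditions with opposite signs among the lines. This glycoprotein associates with elastic fibers and basement membranes. In ES2, EFEMP1 was at 1.57, 2.08 and 1.43 FPKM in siC and at 16.3, 16.2 and 17.0 FPKM in siI1, a log2 fold change of 2.96 ± 0.12. In A549, where the control level was highest, it went from 12.7, 16.0 and 13.6 FPKM to 30.4, 29.7 and 30.8 FPKM (1.08 ± 0.09). In PANC1 it was at 2.38, 2.94 and 2.64 FPKM in siC and at 0.923, 1.05 and 0.994 FPKM in siI1, a log2 fold change of -1.08 ± 0.12 with all siI1 libraries below siC. In MV3 EFEMP1 had at most 2 reads in any library. The siC and siI1 levels followed different orders, A549, PANC1, ES2 and MV3 without knockdown and A549, ES2, PANC1 and MV3 with it, and no neighbors in either order overlapped.

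CPA4 removes C-terminal hydrophobic residues from peptides. Its level in ES2 was far above that in the other lines, at 157, 161 and 171 FPKM in siC and 284, 285 and 280 FPKM in siI1, within the top percentile of protein-coding genes in both conditions. The log2 fold change there, 0.79 ± 0.04, was the lowest of the 4 lines, and it rests on 13049 siC and 26032 siI1 reads in sum. In MV3, CPA4 was at 5.42, 6.24 and 5.37 FPKM in siC and at 14.3, 14.0 and 13.4 FPKM in siI1 (1.22 ± 0.06). A549 had 1.67, 2.16 and 2.19 FPKM against 4.16, 5.17 and 4.06 FPKM (0.99 ± 0.15). PANC1 had 1.02, 2.20 and 1.53 FPKM against 4.25, 4.12 and 3.58 FPKM (1.14 ± 0.21). The order ES2, MV3, A549 and PANC1 was the same with and without knockdown, and A549 and PANC1 overlapped in both.

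ATP8B1, a flippase that moves phospholipids to the cytoplasmic leaflet and whose loss causes inherited cholestasis, differed between conditions mainly in ES2. There it was at 1.08, 0.573 and 0.604 FPKM in siC and at 8.29, 8.42 and 8.15 FPKM in siI1 (log2 fold change 2.83 ± 0.16). Without knockdown ES2 had the lowest ATP8B1 level of the 4 lines, below MV3, PANC1 and A549 with no overlap, and with knockdown it overlapped PANC1, the next in the order. In MV3 the levels were 2.97, 3.22 and 2.98 FPKM in siC and 4.24, 3.95 and 4.06 FPKM in siI1 (0.37 ± 0.06).

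In A549, ATP8B1 was at 8.29, 8.99 and 7.82 FPKM in siC and at 7.80, 7.77 and 7.59 FPKM in siI1 (-0.11 ± 0.08), where the groups were separated only by the narrow gap between 7.80 and 7.82 FPKM. PANC1 had 7.41, 6.61 and 6.73 FPKM in siC and 8.46, 7.47 and 7.67 FPKM in siI1 (0.17 ± 0.08). This sign depended on scaling, since it was -0.53 when the FPKM of all libraries were brought to the same sum. That scaling moved the median of all genes in PANC1 by -0.65. The lncRNA ATP8B1-AS1 overlaps the gene on the other strand, and the strand setting of the counting is not given in the sources used here. It did not pass the test in any line, with 1.21 FPKM in siC and 1.49 FPKM in siI1 of ES2 (log2 fold change 0.24, limma adjusted p = 0.54).

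**Figure D2:**
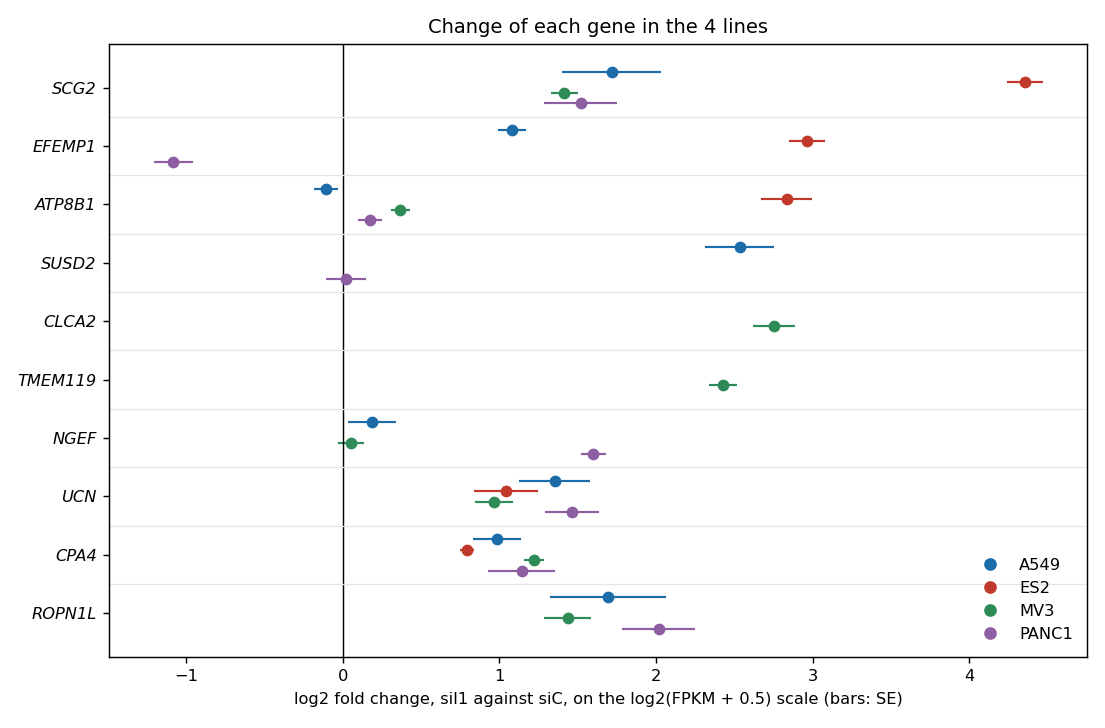
Log2 fold change of the 10 genes, siI1 against siC, on the log2(FPKM + 0.5) scale (points; bars are the SE of the limma fit, 3 libraries per condition), colored by line and shown only where the mean reached 0.5 FPKM. ES2 lies far to the right for SCG2 (4.35), EFEMP1 (2.96) and ATP8B1 (2.83), while the points of UCN and CPA4 lie close together.

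SUSD2, a type I membrane protein with a sushi domain, differed in A549. It was at 0.325, 0.476 and 0.735 FPKM in siC and at 4.89, 6.46 and 4.65 FPKM in siI1, which rest on 7 to 17 and 83 to 155 reads (log2 fold change 2.53 ± 0.22). PANC1, the line with the highest SUSD2 level without knockdown, had 4.13, 3.74 and 3.02 FPKM in siC and 3.99, 3.69 and 3.34 FPKM in siI1 (0.02 ± 0.13), with overlapping groups. In A549 the siI1 libraries were thus above the PANC1 level, while the siC libraries were below it. ES2 had 0 reads in siC and 2 to 4 reads in siI1. MV3 ranged from 0.0755 to 0.206 FPKM with overlapping groups.

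CLCA2 and TMEM119 were measurable in MV3 and at or near 0 elsewhere. CLCA2 is a membrane protein of epithelia that modulates chloride currents and is known as a p53 target. In MV3 it was at 0.502, 0.397 and 0.521 FPKM in siC and at 7.31, 5.81 and 5.22 FPKM in siI1, on 28 to 37 and 461 to 660 reads (log2 fold change 2.75 ± 0.13). In A549, ES2 and PANC1 no library had more than 1 CLCA2 read. TMEM119, a membrane protein of osteoblasts that is also used as a marker of microglia, was at 0.833, 0.860 and 1.11 FPKM in siC and at 7.07, 7.29 and 7.19 FPKM in siI1 of MV3 (2.43 ± 0.09). It had 0 reads in A549, at most 3 in ES2 and at most 4 in PANC1. In libraries of these 3 lines, 3 reads correspond to 0.0784 to 0.207 FPKM of CLCA2 and to 0.111 to 0.292 FPKM of TMEM119, less than the level of either gene in the siC libraries of MV3.

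NGEF was highest in PANC1 and differed there. It was at 3.15, 3.29 and 2.83 FPKM in siC and at 10.7, 10.6 and 9.80 FPKM in siI1 (log2 fold change 1.60 ± 0.08). A549 had 1.47, 1.61 and 1.61 FPKM in siC and 1.93, 1.93 and 1.69 FPKM in siI1 (0.19 ± 0.15), a difference about as large as its SE although the groups did not overlap. MV3 had 1.62, 1.75 and 1.65 FPKM in siC and 1.87, 1.67 and 1.72 FPKM in siI1 (0.05 ± 0.08), with overlap. ES2 had 2 to 12 NGEF reads per library, also with overlap.

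ROPN1L was highest in PANC1 as well, but higher in siI1 in all lines. PANC1 had 1.15, 1.42 and 0.590 FPKM in siC and 6.60, 4.76 and 5.63 FPKM in siI1 (log2 fold change 2.02 ± 0.23). MV3 had 0.219, 0.386 and 0.383 FPKM in siC and 1.95, 1.77 and 1.51 FPKM in siI1 (1.44 ± 0.15). A549 had 0.405, 0 and 0.126 FPKM in siC, on at most 3 reads, and 2.22, 1.09 and 1.71 FPKM in siI1, on 9 to 13 reads (1.69 ± 0.37). ES2 did not reach the minimum, with 0.171, 0.168 and 0.0763 FPKM in siC and 0.724, 0.305 and 0.586 FPKM in siI1, on 1 to 2 and 4 to 10 reads. The separation in ES2 and A549 therefore rests on few reads. ROPN1L-AS1, which overlaps the start of ROPN1L on the other strand, had at most 2 reads in any library.

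The size of the PANC1 differences depended on scaling. With the libraries brought to the same sum, the log2 fold changes in PANC1 were 1.44 for ROPN1L, 1.03 for SCG2, 0.91 for NGEF, 0.91 for UCN, 0.53 for CPA4, -1.66 for EFEMP1 and -0.64 for SUSD2, each lower than the values above. CPA4 then had its lowest log2 fold change in PANC1 and not in ES2, where it was 0.87, and UCN its lowest in PANC1 and not in MV3, where it was 0.96. The 1.44 of ROPN1L in PANC1 lies below the 1.69 that ROPN1L had in A549 before this scaling. In A549, ES2 and MV3 this scaling moved no other value of the 10 genes by more than the spread between replicates.

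**Figure D3:**
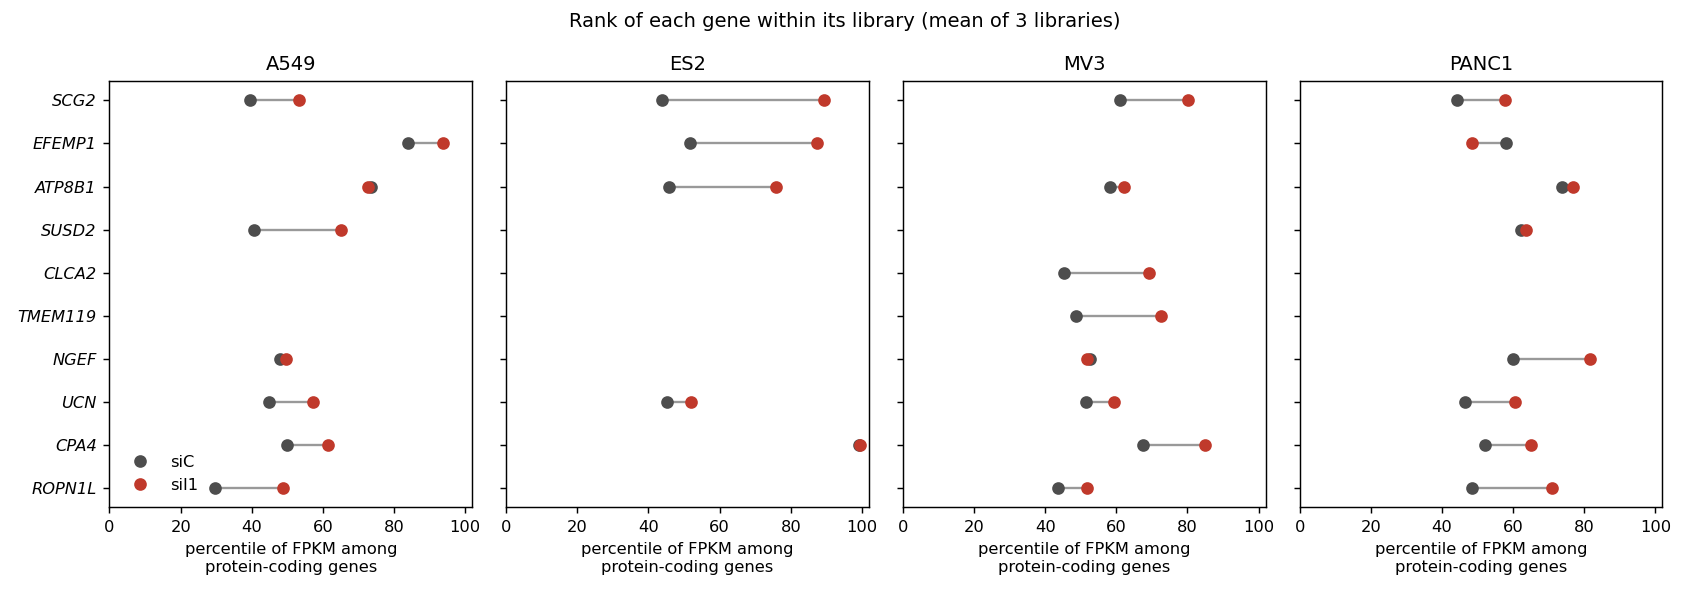
Percentile of the FPKM of each gene among protein-coding genes of the same library (horizontal axis, 0 to 100, mean of 3 libraries; gray siC, red siI1), for genes that reached the minimum in the line. SCG2 spans the widest range, from 43.8 to 89.4 in ES2, and CPA4 sits at the upper end in both conditions of ES2.

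The values of the 10 genes were also compared with each other over the 24 libraries, as Pearson r of log2(FPKM + 0.5) after subtraction of the siC mean of the line. These points share libraries and lines, and r is a description. The genes were chosen for rises in these same values, so a high r between genes that rise in the same lines follows in part from the choice. TMEM119 and CLCA2, which were both measured in MV3 almost alone, had r = 0.99. Among UCN, CPA4 and ROPN1L, r was 0.87 for UCN and CPA4, 0.89 for UCN and ROPN1L and 0.86 for CPA4 and ROPN1L. These genes were not set apart sharply, since SCG2 had 0.69 with UCN, 0.62 with CPA4 and 0.47 with ROPN1L. NGEF had 0.64 with ROPN1L. SCG2 and ATP8B1 had r = 0.87 and EFEMP1 and ATP8B1 0.82, in each case with the largest difference in ES2. The lowest r was -0.33, between EFEMP1 and NGEF.

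Among 12232 protein-coding genes compared in the same way, the most similar patterns were found for the following genes. ANKRD42 and ANKRD33B were the 2 genes most like CPA4 (r = 0.953 and 0.946) and also the 2 most like UCN (0.932 and 0.945). PLPPR2 and TMEM250 were most like ROPN1L (0.938 and 0.933). PTTG1IP and CAV2 were most like SCG2 (0.964 and 0.962), LAMA3 and IL6ST most like EFEMP1 (0.981 and 0.980), and XIRP2 and KIT most like ATP8B1 (both 0.981). NEK7 and GABRA5 were most like SUSD2 (0.975 and 0.974), KCNK15 and RTL6 most like NGEF (0.970 and 0.948), TH and TMEM119 most like CLCA2 (0.993 and 0.987), and CLCA2 and MUC15 most like TMEM119 (0.987 and 0.983). A high r can come from 1 line and does not measure size. PTTG1IP had a log2 difference of 1.03 in ES2 against 4.35 for SCG2, and GABRA5 0.36 in A549 against 2.53 for SUSD2. KCNK15 in PANC1 was close to NGEF, at 1.57 against 1.60. XIRP2 and KIT were near 0 outside ES2.

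The genes beside the 10 were not used to choose them and were tested. For each gene these were the nearest protein-coding gene on either side and any gene overlapping it, 27 in all. In A549, 2 of 14 tested neighbors were higher and 0 lower (limma adjusted p under 0.05; at an unadjusted p under 0.05, 2 higher and 0 lower; by voom on recovered reads, 3 and 0). Of all genes tested there, 5.93% were higher and 7.83% lower. In ES2, 5 of 15 were higher and 0 lower by limma (7 and 2 unadjusted, 7 and 1 by voom), against 10.5% and 13% of all genes. Among these 5, CCDC85A and CPA5 reached the minimum through siI1 alone, so the filter favored their direction. Both calls were lost in some alternative settings, as given below. By voom, 1837 genes of all tested were higher and 2339 lower in A549, and 2414 and 2944 in ES2. In MV3, 6 of 15 were higher and 2 lower, against 16.3% and 19.5%, and in PANC1 5 of 14 were higher and 2 lower, against 11.3% and 13.4%. All genes tested include non-coding ones. Protein-coding were 11756 of 18411 in A549 and 11171 of 16920 in ES2. In MV3 they were 10960 of 16380 and in PANC1 11109 of 15846. Calls among protein-coding genes alone were not counted.

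ANKRD33B, an ankyrin repeat protein gene 92041 bases to the right of ROPN1L on the same strand, was the only neighbor that increased in all 4 lines. A549 showed a log2 fold change of 0.84 (limma adjusted p = 0.0056), ES2 of 0.70 (adjusted p = 0.0015), MV3 of 0.87 (adjusted p = 0.00054) and PANC1 of 1.02 (adjusted p = 0.0006). In PANC1 its level was 8.21 FPKM in siC and 17.1 FPKM in siI1, and the call was lost when libraries were brought to the same sum (adjusted p = 0.16). MARCHF6, a ubiquitin ligase gene that ends 1136 bases before ROPN1L, increased by far less, with 0.25 in ES2 (adjusted p = 0.014) and 0.19 in MV3 (adjusted p = 0.044), and did not pass in A549 or PANC1. Its ES2 call was lost without siI1 replicate 1 and with a replicate block, and its MV3 call without any of 4 single libraries, without a minimum level and under the same-sum scaling, with adjusted p up to 0.067 and 0.16 over the alternatives.

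Beside the other genes, neighbors changed in some of the lines. AP1S3, a subunit of a clathrin adaptor to the right of SCG2, increased in A549 (0.73, limma adjusted p = 0.015) and PANC1 (0.60, adjusted p = 0.011), but had 0.27 in ES2 (adjusted p = 0.21), the line with the largest SCG2 difference. The A549 call of AP1S3 was lost without siC replicate 1 or siI1 replicate 2 or 3 (highest adjusted p = 0.057), and the PANC1 call under the same-sum scaling (adjusted p = 0.58). Next to EFEMP1, CCDC85A increased in ES2 (1.08, adjusted p = 0.022, lost without any of 4 single libraries with at most 0.071), and PNPT1, a mitochondrial exoribonuclease, decreased in MV3 (-0.44, adjusted p = 0.0033) and PANC1 (-0.61, adjusted p = 0.0014). CCDC85A in ES2 was at 0.469 FPKM in siC and 1.59 FPKM in siI1, and so reached the minimum through siI1 alone. CPA5, the carboxypeptidase gene to the right of CPA4, increased in ES2 (1.15, adjusted p = 0.031) from 0.242 FPKM, under the minimum, to 1.11 FPKM. This CPA5 call was lost in 7 of 12 alternative settings, among them the omission of any of 5 single ES2 libraries (highest adjusted p = 0.11).

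In MV3, SELPLG beside TMEM119 increased (0.64, limma adjusted p = 0.0040), as did ISCU on its other side (0.19, adjusted p = 0.021, at most 0.13 over the alternatives and lost in 5 of 13). ISCU also increased in PANC1 (0.41, adjusted p = 0.033, lost in 7 of 13 alternative settings, with at most 0.11). ODF2L, left of CLCA2, had 0.28 in MV3 (adjusted p = 0.059), and CLCA1, right of it and a paralog, had at most 0.005 FPKM in any group. GGT5 beside SUSD2 increased in ES2 (0.70, adjusted p = 0.0036) and did not reach the minimum in A549, while CABIN1, 2859 bases from SUSD2, had 0.11 in A549 (adjusted p = 0.31) and increased in MV3 (0.22, adjusted p = 0.0092). In PANC1, GIGYF2 on the left of NGEF decreased (-0.39, adjusted p = 0.011) and SNORC, which overlaps the end of NGEF on the other strand, increased (0.75, adjusted p = 0.043), a call lost in 9 of 13 alternative settings, 5 of which leave out 1 library (highest adjusted p = 0.44). Close to ATP8B1, NARS1 and NEDD4L did not pass in ES2 (-0.14, adjusted p = 0.13, and 0.01, adjusted p = 0.95). In MV3 NARS1, an aminoacyl-tRNA synthetase, decreased (-0.40, limma adjusted p = 0.00041) and NEDD4L, a ubiquitin ligase, increased (0.29, adjusted p = 0.0044). NEDD4L also increased in PANC1 (0.44, adjusted p = 0.015), a call lost without siC replicate 1 or siI1 replicate 2 or 3 and under the same-sum scaling (highest adjusted p = 0.36). MPV17, 1047 bases from UCN, did not pass in any line.

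**Figure D4:**
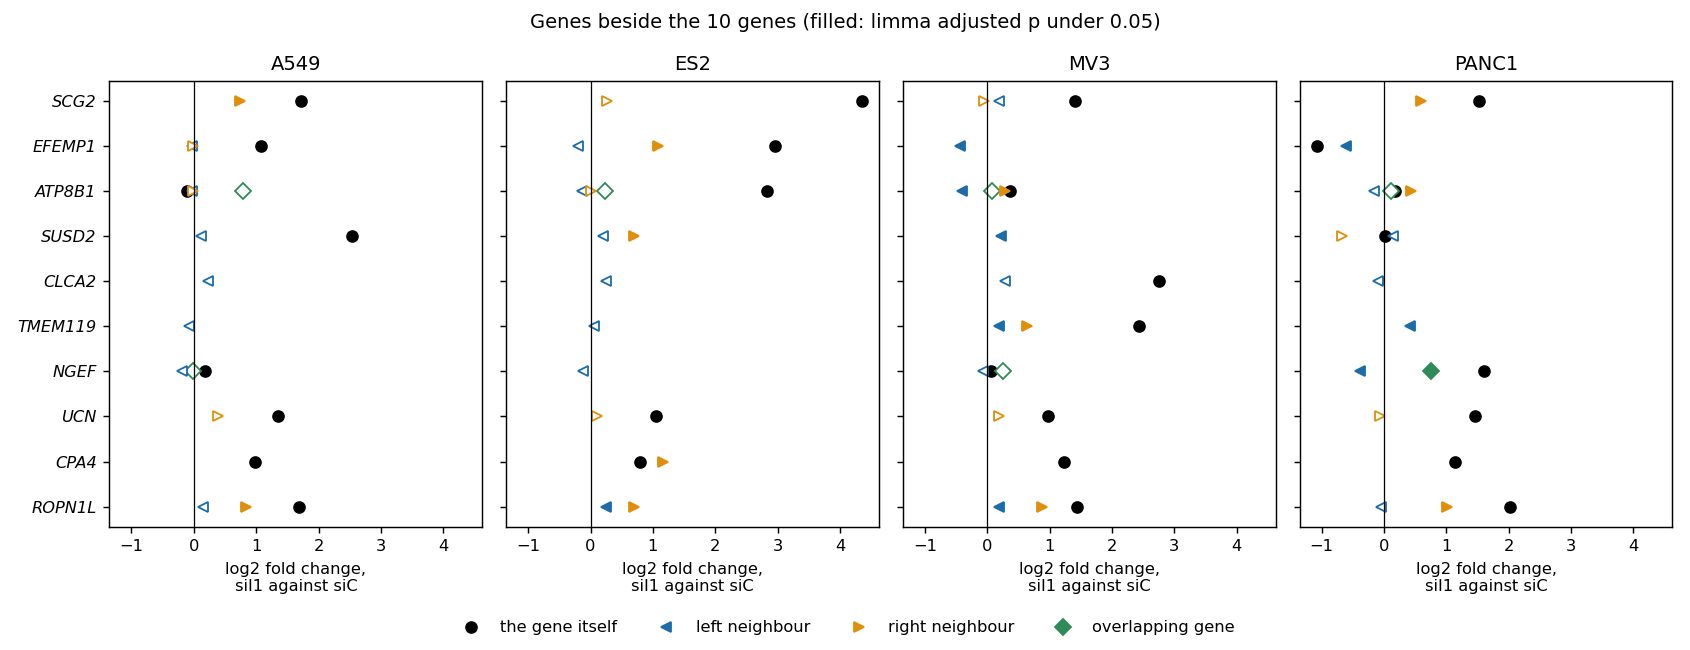
Log2 fold change, siI1 against siC, of the 10 genes (black circles) and of their left, right and overlapping neighbors (blue, orange, green; filled where the limma adjusted p was under 0.05), 1 panel per line. The right neighbor of ROPN1L, ANKRD33B, is filled in all 4 panels.

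Genes of the same family, complex or pathway as each of the 10 were tested from 10 lists with 158 genes in total. The lists were drawn up with earlier results of these data known, so their shares are descriptions and not an independent test. In ES2, 26 of 63 tested genes of the lists were higher (41.3%) and 4 lower (6.35%), against 10.5% and 13% of all genes, coding and non-coding. In MV3, 23 of 65 were higher (35.4%) and 9 lower (13.8%), against 16.3% and 19.5%. A549 had 8 higher (11.6%) and 6 lower (8.70%) of 69, and PANC1 4 higher (6.35%) and 7 lower (11.1%) of 63, against 5.93% and 7.83% of all genes in A549 and 11.3% and 13.4% in PANC1. The median log2 fold change was 0.20 in ES2 and 0.12 in MV3, against medians of -0.02 and 0.01 over all genes tested, and it was -0.07 in A549 and -0.03 in PANC1, against -0.01 and -0.04. In PANC1 the split depended on scaling. With the libraries brought to the same sum, which moved the median of all genes by -0.65, 0 of the related genes were higher and 34 lower, and over all genes 96 were higher and 8870 lower in place of 1796 and 2131. In ES2 the same scaling gave 24 higher and 2 lower related genes, and 1780 higher and 1419 lower genes in all in place of 1772 and 2201.

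The genes of elastic fibers listed for EFEMP1 held the most genes called higher of any list in ES2 and in MV3. This count depends on how many genes of a list were tested. By share, the CPA4 list was higher in ES2, with 5 of 5. Of all genes tested, 10.5% were higher in ES2 and 16.3% in MV3. In ES2 8 of 11 were higher and 1 lower, in MV3 7 of 9 higher and 1 lower, in A549 1 of 8 higher and 1 lower, and in PANC1 0 of 8 in either direction by limma (median -0.12, and 0 also at an unadjusted p under 0.05 and by voom). With libraries brought to the same sum, 8 in ES2 and 6 in MV3 were higher, while in PANC1 5 were lower. FBN1, the main protein of microfibrils, increased in ES2 from 2.999 to 14.7 FPKM (log2 fold change 2.12, limma adjusted p = 6.23e-05). LOXL1, which cross-links elastin, increased in ES2 from 11.7 to 31.1 FPKM (1.38, adjusted p = 0.00034), and MFAP2, a microfibril glycoprotein, increased in MV3 from 2.12 to 4.76 FPKM (1.01, adjusted p = 0.00056). The exceptions, named after their values were seen, were LTBP4 in ES2 (-0.40, adjusted p = 0.034, lost in 7 of 13 alternative settings, with at most 0.097), LOX in MV3 (-0.32, adjusted p = 0.0027) and LTBP1 in A549 (-0.77, adjusted p = 0.0025). EFEMP1 itself was at or near 0 in MV3, where 7 of these genes increased. Of the genes higher in ES2, EMILIN1, named after its values were seen, reached the minimum through siI1 alone (0.461 FPKM in siC, 1.44 in siI1).

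For TMEM119, bone-forming genes were listed. In ES2 4 of 7 were higher and 1 lower, in MV3 3 of 6 higher and 1 lower, in A549 2 of 9 higher and 1 lower, and in PANC1 1 of 6 higher and 2 lower. COL1A1, a chain of type I collagen, increased in ES2 from 3.59 to 21.1 FPKM (log2 fold change 2.40, limma adjusted p = 0.000675) and in MV3 from 1.23 to 5.13 FPKM (1.71, adjusted p = 8.09e-05). SPARC, a collagen-binding glycoprotein, increased in ES2 from 76.2 to 242.8 FPKM (1.67, limma adjusted p = 0.00015) and in MV3 (0.82, adjusted p = 0.00011). In PANC1 SPARC decreased (-0.41, adjusted p = 0.048), a call lost in 7 of 13 alternative settings (at most 0.14). It did not pass in A549 (-0.98, adjusted p = 0.066). SPP1, osteopontin, decreased in PANC1 from 0.982 to 0.0226 FPKM (-1.51, adjusted p = 0.011). SPP1 thus reached the minimum in PANC1 through siC alone. BMP2, named after its values were seen, decreased in A549, ES2 and MV3 (-0.69, -1.12 and -0.53, limma adjusted p = 0.029, 0.0028 and 0.0068), although the A549 call was lost when any single library was left out (adjusted p at most 0.10).

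Of the metallocarboxypeptidases and their inhibitors listed for CPA4, all 5 that were tested in ES2 were higher, in MV3 2 of 4, in A549 1 of 4, and in PANC1 1 was higher and 1 lower of 2. LXN, an inhibitor of A-type carboxypeptidases, increased in ES2 from 5.46 to 14.1 FPKM (log2 fold change 1.31, limma adjusted p = 0.0087), and the others in ES2 were CPA5, CPD, CPM and AEBP1. CPA5 reached the minimum in ES2 through siI1 alone (0.242 FPKM in siC, 1.11 in siI1), so the filter favored its direction. Its call was lost in 7 of 12 alternative settings (highest limma adjusted p = 0.11). CPM reached the minimum in MV3 in the same way (0.489 FPKM in siC, 1.05 in siI1). Among the other flippases and their subunits listed for ATP8B1, 2 of 10 were higher and 1 lower in ES2, where ATP8B1 itself was 11.0-fold higher. ATP8B2, a close paralog, decreased there from 12.2 to 4.59 FPKM (-1.32, adjusted p = 0.00038), and also in A549 (-0.80, adjusted p = 0.0089) and MV3 (-0.49, adjusted p = 0.00023). In A549 1 of 11 genes of this list was higher and 2 lower, in MV3 1 of 9 higher and 3 lower, and in PANC1 0 of 9 higher and 2 lower.

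The lists of the remaining genes were counted in the same way, and where limma gave 0 calls in either direction the count at an unadjusted p under 0.05 and the calls by voom on recovered reads stand beside it. For SCG2, genes of secretory granules were 2 of 5 higher in ES2 and 2 of 7 in MV3. In A549 0 of 6 passed by limma (2 higher and 1 lower unadjusted, and the same by voom), and in PANC1 0 of 5 (0 unadjusted and 0 by voom). Chloride channels and related proteins listed for CLCA2 were higher in 3 of 5 tested genes in MV3, 3 of 6 in ES2 and 1 of 5 in A549, and 1 of 6 was lower in PANC1. Eph receptors, ephrins and the other signaling genes listed for NGEF were 1 higher and 1 lower of 14 in PANC1, the line of the largest NGEF difference, and 3 higher and 3 lower of 13 in MV3, with 1 of 11 lower in ES2 and 2 of 16 lower in A549.

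Of the cilium and flagellum genes listed for ROPN1L, 2 of 6 were higher in A549, 1 of 4 in ES2 and 2 of 5 in MV3. In PANC1, where the ROPN1L log2 fold change was largest, 0 of 7 passed by limma (3 higher and 1 lower unadjusted, 2 and 1 by voom). The ratio of the ROPN1L means was larger in A549 (9.47, on few reads) than in PANC1 (5.38). The sushi domain proteins and related genes listed for SUSD2 gave 0 of 3 in A549 by limma (1 higher and 1 lower unadjusted, 1 and 0 by voom), 1 of 4 higher in ES2, 1 of 6 lower in MV3 and 1 of 5 higher in PANC1. Of the family of UCN, the ligand UCN2 was tested in A549 (0.72, limma adjusted p = 0.21) and PANC1 (-0.22, adjusted p = 0.70), and the binding protein CRHBP in MV3 (0.22, adjusted p = 0.38). The receptors CRHR1 and CRHR2 did not reach the minimum in any line.

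**Figure D5:**
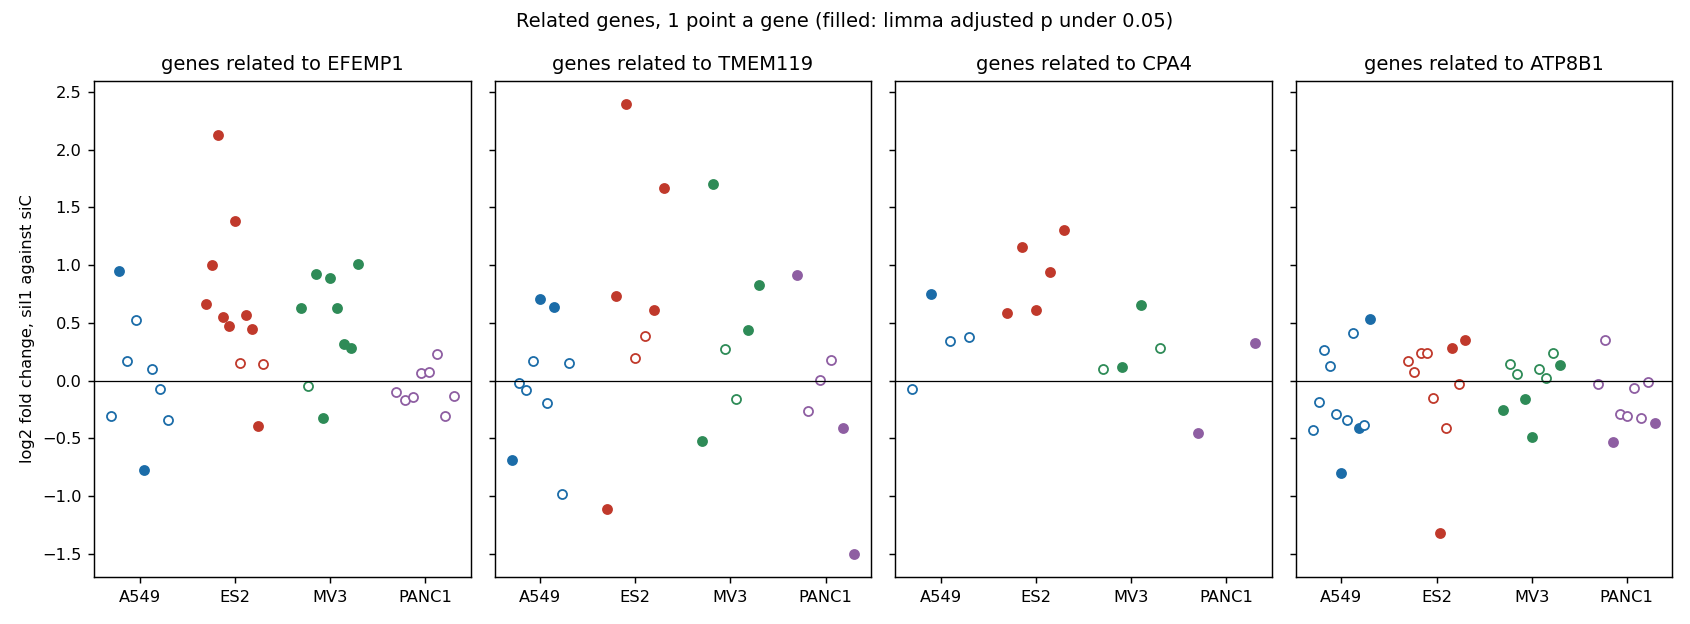
Log2 fold change, siI1 against siC, of genes related to EFEMP1, TMEM119, CPA4 and ATP8B1 (1 point per tested gene; filled where the limma adjusted p was under 0.05), by line. For the elastic fiber list, 8 of 11 points in ES2 and 7 of 9 in MV3 are filled and above 0, against 1 of 8 in A549 and 0 of 8 in PANC1.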

How the data were processed

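The 10 genes and the lists of related genes were chosen with earlier results of these data known. Per the labels, the authors trimmed reads (cutadapt 1.14), mapped them to hg38 (HISAT2 2.1.0) and summed them by gene (featureCounts 1.5.3); the strand setting is not given in the sources used here. The deposited tables, 1 per line, hold FPKM scaled by the authors' TMM factors. The product of value and gene length came in whole steps, fixed per library, for 100% of values (tolerance 0.0001), so reads were recovered. The authors' deposited comparison from edgeR (3.30.3) gives a log2 fold change and a p-value per gene, with an FDR, and was not used. The deposited gene length, in bases, was used as listed.

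Values were transformed to log2(FPKM + 0.5). Genes that averaged 0.5 FPKM or more in the 6 libraries of their line entered limma (3.58.1, R 4.3.3), where lmFit was followed by eBayes with trend, two-sided, for siI1 against siC without covariates, and p-values were adjusted over all genes tested by Benjamini-Hochberg (18411 in A549, 16920 in ES2, 16380 in MV3, 15846 in PANC1), with a threshold of 0.05. The fit was run on simulated reads with the same dispersion for every gene. This setting is simpler than the replicate spread given below, so it does not test the calls made here. Tables were normalized per line, so levels were not tested across lines, and differences between lines were not tested. Replicates differed by more than sampling noise (chi-square per gene 1.54 to 15.1 over 24 pairs), and each library was counted once. The methods call the 3 libraries biological replicates.

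Named were the 10 genes, IGF2BP1, the neighbors, up to 3 related genes per list that passed and moved by 1 or more on the log2 scale, and the 2 protein-coding genes with the highest Pearson r for each of the 10; genes outside this rule are marked as named after their values were seen. Similarity used genes that averaged 1 FPKM or more in at least 1 line. Alternatives were pseudocounts of 0.1 and 1, no minimum, a minimum of 1 FPKM, rescaling to the same sum, limma voom on recovered reads, a replicate block and leaving out each library. Positions are from GENCODE 44. Python 3.11.15, numpy 2.4.6, pandas 2.3.3 and matplotlib 3.10.9 were used.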

Additional observations from a re-analysis of the deposited data

Results flagged for a closer look

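Of the 10 genes, 2 had all siI1 libraries above siC in some lines and all below in another. EFEMP1 was above in A549 (log2 fold change 1.08) and ES2 (2.96) and below in PANC1 (-1.08). ATP8B1 was above in ES2 (2.83), MV3 (0.37) and PANC1 (0.17) and below in A549 (-0.11), where the gap between the groups was narrow. The difference between the lines was not tested in either case, and PANC1 was also harvested later, at 96 h.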

How the results depend on the processing

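Leaving out any single library kept all 174 values of the 10 genes within the spread between replicates, and the replicate block kept all 29. The block changed counts in A549 (3 related genes higher and 2 lower, in place of 8 and 6) and ES2 (2 related genes lower in place of 4, 3 neighbors higher in place of 5). Calls over all genes fell with it too. They were 379 higher and 622 lower in A549, in place of 1092 and 1441. In ES2 they were 1169 and 1443, in place of 1772 and 2201. Same-numbered libraries had correlations from -0.056 to 0.071, and differently numbered ones from -0.056 to 0.067. The numbers thus gave no sign of pairing, although with 3 libraries per condition this check cannot exclude it. Rescaling to the same sum reversed ATP8B1 in PANC1 (-0.53), moved 8 of the other values of the 10 genes by more than the spread, and gave 2 related genes lower in ES2 and, in PANC1, 0 related genes higher and 34 lower, with 0 neighbors higher and 8 lower, in place of 4, 7, 5 and 2. Limma voom on recovered reads gave 14 related genes higher and 14 lower in A549, 10 lower and 1 neighbor lower in ES2 (in place of 4 and 0), and 12 higher and 12 lower in PANC1, and moved 17 of the 29 values by more than the spread (SUSD2 in A549 to 3.39 and SCG2 in ES2 to 5.31). Voom also raised the calls over all genes. It gave 1837 higher and 2339 lower in A549, 2414 and 2944 in ES2, and 2256 and 2760 in PANC1. The limma calls were 1092 and 1441 in A549, 1772 and 2201 in ES2, and 1796 and 2131 in PANC1. Without a minimum, A549 had 5 related genes higher and 3 lower, and 859 higher and 1209 lower of 28750 genes in all. Another pseudocount moved 17 (0.1) and 14 (1) of the 29 values by more than the spread, in no case with a change of sign.

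When each library was left out in turn, related genes higher were 3 to 8 in A549 (5 without siC replicate 1 or 2 or siI1 replicate 2, 4 without siC replicate 3 and 3 without siI1 replicate 3), 17 to 23 in ES2 (17 without siI1 replicate 3, from 26), 15 to 21 in MV3 (15 without siI1 replicate 3, from 23) and 2 to 7 in PANC1 (7 without siC replicate 2, and 2 without siI1 replicate 1 or 3). Related genes lower were 2 to 4 in A549 (2 without siC replicate 1 or 2 or siI1 replicate 1, 3 without siI1 replicate 2 or 3), 2 to 4 in ES2 (2 without siC replicate 2 or siI1 replicate 2 or 3) and 3 to 7 in PANC1 (3 without siC replicate 1, 4 without siI1 replicate 1). Neighbors higher were 1 to 2 in A549 (1 without siC replicate 1 or siI1 replicate 2 or 3), 2 to 4 in ES2 (2 without siI1 replicate 1, 3 without siC replicate 2 or siI1 replicate 3) and 2 to 5 in PANC1 (2 without siC replicate 1 or siI1 replicate 2 or 3, 3 without siC replicate 3 or siI1 replicate 1), and neighbors lower in ES2 were 0 to 1 (1 without siC replicate 2). Calls over all genes, higher and lower, also fell in each of these fits in A549, ES2 and MV3. In PANC1 the higher calls over all genes rose to 1888 without siC replicate 2, from 1796. Fewer samples enter these fits, and the cause of the other changes was not tested. In A549, the shallowest line, UCN and ROPN1L rest on 0 to 13 reads per library.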
